A study of Sus scrofa and Bos taurus with 31 samples.

Results

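The 6 genes described here, GFAP, AQP4, SLC1A2, SLC1A3, ALDH1L1 and SOX9, are the genes most often used to recognise astrocytes. They were chosen by name, and each was examined as a window of the gene plus 10 kb either side on the pig assembly Sscrofa11.1, so the members are 6 of 20674 protein-coding genes. The measurement was ATAC-seq, in which a transposase cuts DNA that is not wrapped in nucleosomes and so marks open chromatin. The series holds 31 peak lists, of which the 16 from pigs were used, 1 for each of 8 tissues in each of the animals P348 and P350. The brain groups were cerebellum, cerebral cortex and hypothalamus, and the other groups were adipose, liver, lung, skeletal muscle and spleen, each with 2 libraries. The pigs were castrated male Yorkshire littermates 6 months old, and neither the labels nor the methods name a treatment or genetic change in any group. The nuclei came from whole tissue, so a brain library mixes astrocytes with neurons, oligodendrocytes, microglia and vessel cells, and a smaller share of a cell type cannot be told apart from less open chromatin in each of its cells.

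Astrocytes are the glial cells that take up transmitter, buffer water and ions and supply neurons with metabolites. GFAP is the intermediate filament protein of their cytoskeleton, AQP4 the water channel of their endfeet on blood vessels, and SLC1A2 and SLC1A3 the transporters that clear glutamate from synapses. ALDH1L1 is an enzyme of folate metabolism that is also abundant in liver, and SOX9 is a transcription factor that astrocyte nuclei carry and that also acts in cartilage and many epithelia. An open promoter is compatible with an active or a merely permissive gene, and enhancers that restrict a gene to a cell type often lie away from its promoter.

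No member had open chromatin in brain alone. The transcription start site (TSS) of AQP4, SLC1A2 and SLC1A3 lay within 2 kb of a peak in all 16 libraries, as did that of 54.7% of all protein-coding genes. GFAP came closest to a brain pattern, with a peak at its start in 6 of 6 brain libraries and 3 of 10 others. Of all genes, 0.218% had all 6 and at most 3 others. That limit was set at the count of GFAP after the data were seen, so the share is a description only. None of the 6 members had a start peak in all 6 brain libraries and in no other library, which 0.0242% of all genes did. ALDH1L1 had one in 6 of 6 brain and 7 of 10 other libraries, and SOX9 in 5 of 6 and 10 of 10. With peaks of a q-value under 0.0001 only, the GFAP start was left with 2 of 6 brain libraries and 0 of 10 others, so most of the peaks there did not reach that threshold. The other starts lost libraries too. Brain and other libraries left were 5 and 6 for AQP4, 4 and 8 for SLC1A2, 3 and 4 for SLC1A3, 2 and 4 for ALDH1L1 and 1 and 2 for SOX9. At that threshold 28.3% of all genes had a start peak in all 16 libraries.

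The level of a window was its peak bases per Mb of all peak bases of the library, called the level from here on. The lists held 99960 to 217308 peaks covering 64.1 to 156 Mb, and neither the reads behind them nor the read totals of the study's supplement were used here, so levels were not adjusted for depth. The cerebellum lists were the longest, with 25092 and 35792 peaks at a q-value under 0.0001 against 12842 to 79389 in the other lists. Their median gene window had a level of 11.5 and 18.1 against 23.2 to 38.1 in the other 14 libraries. The median of all 18506 windows tested was 0.45 lower in brain than in other tissues on the log2 scale (a difference of -0.45). Differences are therefore given both as measured and after each library was centred on its median window, a setting added after the data were seen.

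As measured, 1 of the 6 members differed between brain and other tissues, and it was lower in brain. The test was limma over all windows with Benjamini-Hochberg adjustment, and it called 8.22% of all windows higher in brain and 48.9% lower. ALDH1L1 had a level of 46.1 ± 12.5 in brain (SD, n = 6 libraries of 3 tissues) and 75.2 ± 28.4 elsewhere (SD, n = 10 libraries of 5 tissues). All of these libraries came from the same 2 animals. The log2 difference was -0.60 (SE 0.18, adjusted p = 0.0120 from limma). The other members lay between -0.11 for GFAP and 0.56 for AQP4, with adjusted p-values of 0.125 to 0.872. After centring, when 17.7% of all windows were called higher and 10.4% lower, AQP4 was higher in brain by 1.04 (SE 0.30, adjusted p = 0.0209 from limma), SLC1A3 by 0.66 (SE 0.17, adjusted p = 0.0111) and SLC1A2 by 0.56 (SE 0.14, adjusted p = 0.0106). GFAP stood at 0.36 (adjusted p = 0.0835 from limma) and SOX9 at 0.40 (adjusted p = 0.380), while ALDH1L1 was at -0.13 (95% interval -0.49 to 0.24, adjusted p = 0.624). The median difference of the 6 members was 0.01 as measured and 0.48 after centring. These centred calls were not kept without the cerebellum, a fit with 4 brain libraries in place of 6. In it AQP4 was at 0.85, SLC1A2 at 0.41 and SLC1A3 at 0.48, none of which passed (adjusted p = 0.144, 0.111 and 0.118), while GFAP passed at 0.53 (adjusted p = 0.0499). As measured, ALDH1L1 also lost its call without the cerebellum, with -0.43 (adjusted p = 0.138), and with strong peaks alone, with -0.37 (adjusted p = 0.575).

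**Figure D1:**
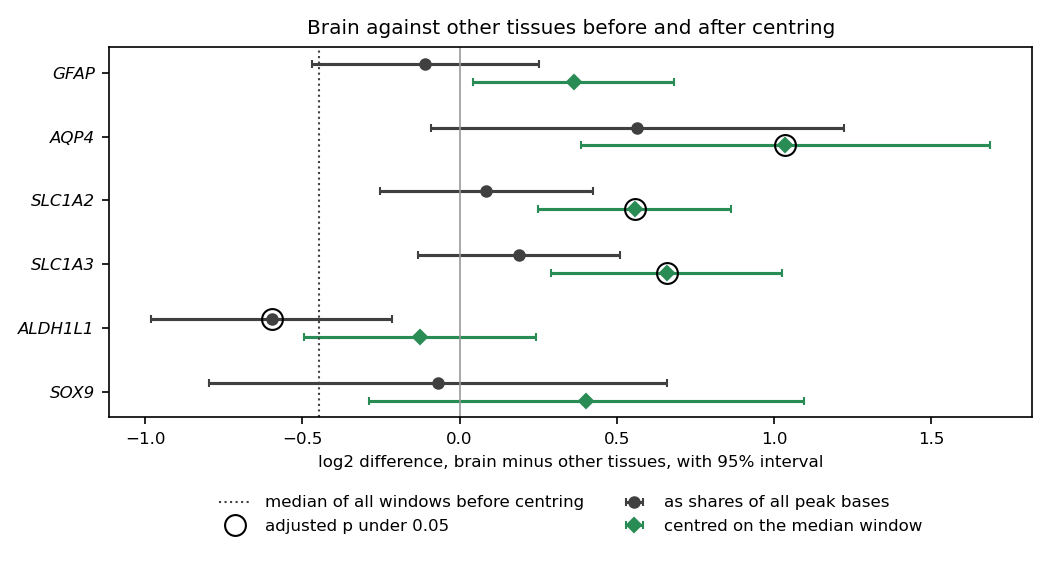
Log2 difference of each gene's level between the 3 brain tissues and the 5 other tissues, with its 95% interval from limma, before (grey) and after (green) each library was centred on its median window. ALDH1L1 alone is called before centring, at -0.60, and AQP4, SLC1A2 and SLC1A3 are called after it, at 1.04, 0.56 and 0.66.

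The ranges of the 6 brain and 10 other libraries overlapped for all 6 members, whereas 0.384% of all windows had every brain library above every other and 1.37% had every one below. With the tissue as the unit, an exact two-sided permutation test over the 56 choices of 3 of 8 tissues gave p = 0.0357 for AQP4 and 0.125 to 0.857 for the others, unadjusted for the 6 tests. The smallest p this design allows is 0.0179.

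**Figure D2:**
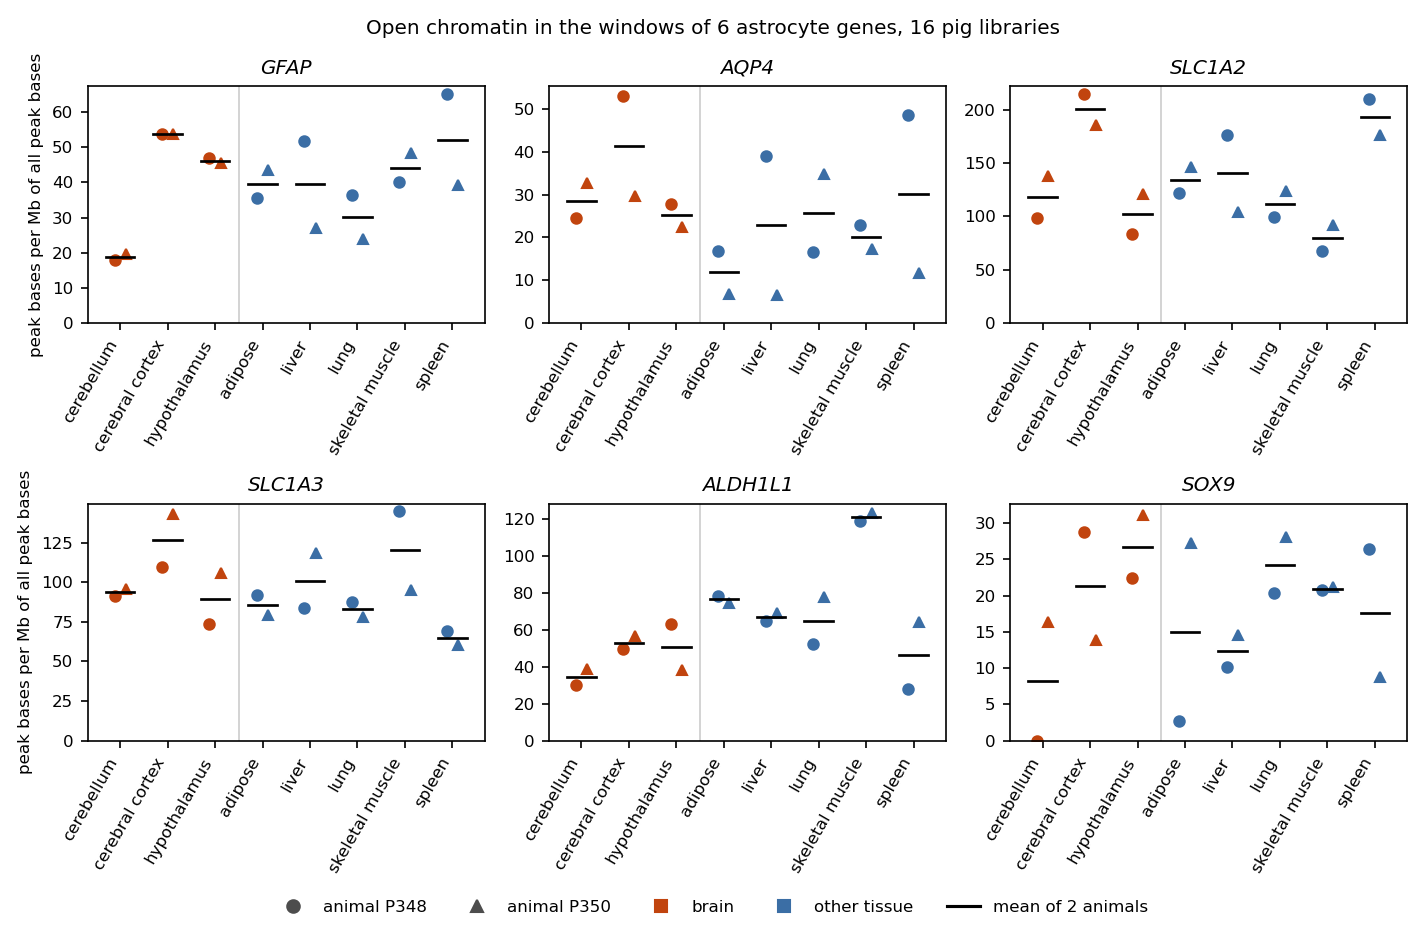
Level of each gene's window (peak bases per Mb of all peak bases) in the 16 pig libraries, with a circle for animal P348, a triangle for P350 and a line at the mean of both. GFAP is lowest in cerebellum, ALDH1L1 is highest in skeletal muscle, and brain and other tissues overlap in every panel.

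GFAP lies on the plus strand at chr12:18456268-18466594, and its window of 30.3 kb also overlaps KIF18B, LOC102165039, CCDC103 and EFTUD2. The level was 17.9 and 19.7 in cerebellum (P348, then P350, as in every pair below), 53.8 and 53.7 in cerebral cortex and 46.9 and 45.5 in hypothalamus. It was 35.5 and 43.6 in adipose, 51.8 and 27.1 in liver, 36.3 and 24.0 in lung, 40.0 and 48.3 in skeletal muscle and 65.1 and 39.3 in spleen. Cerebellum stood below every other tissue, and the 7 others overlapped with their neighbours in the order from cerebral cortex and spleen down to lung. Peaks covered 7.79% to 18.4% of the window. The direction of the brain difference depended on which peaks were counted. With peaks of a q-value under 0.0001 alone the GFAP window was lower in brain, at -1.83 (limma adjusted p = 0.0330). With 50 kb either side it was at -0.61 (limma adjusted p = 0.00325). The shares of all windows called at these 2 settings are not given here. At the GFAP start itself, peaks under 0.0001 were in 2 of 6 brain and 0 of 10 other libraries. Without the peaks at starts of other genes the window was at 0.19 (limma adjusted p = 0.430).

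The region at the GFAP start, chr12:18454459-18456915, reached from upstream into a coding exon. Its fold enrichment was 2.66 and 2.88 in cerebellum, 2.56 and 2.87 in cerebral cortex and 3.24 and 3.06 in hypothalamus. Outside the brain it was called in adipose of P348, at 2.04, and in lung, at 2.13 and 2.24, all below the 6 brain values. No peak was called there in liver, skeletal muscle or spleen. The locus also held 3 regions called in a single library and several called in most. A region centred -4269 bp from the start, chr12:18451299-18452699, had a peak in all 16 libraries with folds of 2.63 to 6.88, and a region over coding exons inside the gene, chr12:18458912-18462034, had one in 5 brain and all 10 other libraries. The 250 bases before the start are shown because they lie in the brain-weighted region. They come from the RefSeq genome sequence of Sscrofa11.1 (chr12:18456018-18456267, plus strand), and no motif of the search described below was found in them.

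GFAP promoter: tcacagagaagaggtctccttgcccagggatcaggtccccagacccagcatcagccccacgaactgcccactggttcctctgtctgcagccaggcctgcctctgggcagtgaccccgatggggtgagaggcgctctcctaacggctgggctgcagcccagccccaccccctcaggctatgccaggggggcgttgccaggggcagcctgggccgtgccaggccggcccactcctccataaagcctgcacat

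AQP4 lies on the minus strand at chr6:111407632-111422169, with 9 annotated starts and no other coding gene in its window. The level was 24.5 and 32.7 in cerebellum, 53.1 and 29.7 in cerebral cortex and 27.8 and 22.5 in hypothalamus. It was 16.9 and 6.85 in adipose, 39.1 and 6.57 in liver, 16.7 and 34.8 in lung, 23.0 and 17.4 in skeletal muscle and 48.6 and 11.8 in spleen. The 6 brain libraries were all at 22.5 or more, while 4 of the 10 others reached that level, and the animals differed most in liver and spleen. Only adipose stood apart from its neighbour in the order of tissues, below skeletal muscle. A window of 50 kb either side put AQP4 past the threshold at 0.84 (limma adjusted p = 0.00740), and lists cut to equal length did so at 1.07 (limma adjusted p = 0.0492). Leaving out liver or spleen of P348 brought the measured brain difference past the threshold, at 0.76 and 0.73 (limma adjusted p = 0.0327 and 0.0429). After centring the call was lost without cerebellum or cerebral cortex of P348, at 1.01 and 0.92 (limma adjusted p = 0.0606 and 0.0694).

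Its main open site, chr6:111418496-111422285, spanned the starts and had a peak in all 16 libraries, with folds of 2.63 to 7.57. The highest folds were in lung of P348 and in skeletal muscle of P350 (7.17). Upstream, chr6:111423803-111424348, centred -1907 bp from the first start, had a peak in 4 brain libraries, which were cerebral cortex (3.04 and 4.08), cerebellum of P350 and hypothalamus of P350, and in adipose of P348. Inside the gene, chr6:111416832-111417304, over a coding exon, was called in both liver libraries only (3.52 and 2.61). Past the end of the gene, chr6:111403410-111403981 was called in both cerebellum libraries only (2.82 and 3.19). The 300 bases at its middle (chr6:111403546-111403845, minus strand) are shown as the cerebellum-only site of the locus. Capitals mark ACAAT on either strand, and 46.3% of these bases are soft-masked as repeats in the assembly.

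AQP4 cerebellum region: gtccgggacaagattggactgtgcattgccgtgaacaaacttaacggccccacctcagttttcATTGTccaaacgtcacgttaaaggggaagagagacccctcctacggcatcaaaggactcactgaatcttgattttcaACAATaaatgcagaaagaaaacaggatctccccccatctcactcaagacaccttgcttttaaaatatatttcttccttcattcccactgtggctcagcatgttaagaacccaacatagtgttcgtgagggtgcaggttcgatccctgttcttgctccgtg

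SLC1A2, on the plus strand at chr2:25603892-25771840 with 5 annotated starts, had the largest window, 188 kb, and the most regions, 50. The level was 98.5 and 138 in cerebellum, 215 and 186 in cerebral cortex and 83.3 and 121 in hypothalamus. It was 122 and 146 in adipose, 177 and 104 in liver, 99.2 and 124 in lung, 67.8 and 91.4 in skeletal muscle and 210 and 176 in spleen. Cerebral cortex and spleen were highest and skeletal muscle lowest, and every tissue overlapped with its neighbour in the order. The region at the first start, chr2:25603136-25606214, was called in all 16 libraries with folds in a narrow range of 2.81 to 3.78. Regions near the inner starts varied by library. Of these, chr2:25639730-25642490 was called in 5 brain and 7 other libraries, and chr2:25659925-25661466 in 6 brain and 5 other libraries.

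Regions of SLC1A2 that belonged to 1 tissue were 7 in number: 2 in cerebral cortex, 2 in lung and 1 each in liver, skeletal muscle and spleen. The strongest was in liver, chr2:25663297-25664217, centred 1178 bp from the start that lies farthest into the gene, with folds of 4.69 and 4.74. The next was in cerebral cortex, chr2:25598342-25598727, centred -5357 bp from the first start in sequence between genes, with folds of 4.21 and 4.59. The third was in lung, chr2:25621814-25622132, in an intron, with folds of 3.25 and 3.96. Near the end of the gene, chr2:25767206-25768594, over an exon without coding sequence, was called in 4 brain libraries and no other, with folds of 2.38 to 3.51; it falls outside the rule for named regions and was chosen after its values were seen. The middle 300 bases of the cortex region (chr2:25598385-25598684, plus strand) are shown as the site closest to the gene's start that a brain tissue alone had. Capitals mark the NFI half-site TTGGCA and ACAAT.

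SLC1A2 cortex region: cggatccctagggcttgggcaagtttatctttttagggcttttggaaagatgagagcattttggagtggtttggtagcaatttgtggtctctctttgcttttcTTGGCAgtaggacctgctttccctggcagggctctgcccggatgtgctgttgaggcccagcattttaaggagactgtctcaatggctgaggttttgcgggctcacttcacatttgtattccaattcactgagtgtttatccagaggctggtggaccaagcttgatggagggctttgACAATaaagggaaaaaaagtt

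SLC1A3 lies on the plus strand at chr16:21873691-21965315 with 2 annotated starts. The level was 91.6 and 95.9 in cerebellum, 110 and 143 in cerebral cortex and 73.8 and 106 in hypothalamus. It was 91.9 and 79.1 in adipose, 83.5 and 119 in liver, 87.8 and 78.0 in lung, 145 and 95.01 in skeletal muscle and 69.0 and 60.6 in spleen. Cerebral cortex and skeletal muscle led the order, and spleen alone stood apart from its neighbour, at the bottom. With lists cut to equal length SLC1A3 was higher in brain by 0.45 (limma adjusted p = 0.0447). The first start, chr16:21873510-21875580, was open in all 16 libraries with folds of 2.61 to 6.56, and the second start, chr16:21939873-21941320, in 4 brain and 3 other libraries.

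The site of SLC1A3 with the clearest brain pattern lay upstream, at chr16:21864965-21865811, centred -8303 bp from the first start between genes. It was called in cerebral cortex (2.86 and 4.24) and hypothalamus (3.52 and 3.93), and in neither cerebellum nor any tissue outside the brain. This site falls outside the rule for named regions and was chosen after its values were seen, as was the intronic region chr16:21891397-21893242, which was called in all 6 brain libraries (2.64 to 4.38), both liver libraries (3.04 and 3.92) and skeletal muscle of P348 (2.53). Beyond the end of the gene, 2 regions were open in all 16 libraries. One of them, chr16:21971947-21973020, had the highest fold of any member region, 12.4 in liver of P348 and 10.99 in liver of P350. The upstream region is shown because it separates cortex and hypothalamus from the other tissues (middle 300 bases, chr16:21865238-21865537, plus strand). Capitals mark the AP-1 motif TGACTCA, which runs into the first of 2 ACAAT, and the NFI half-site on the other strand, TGCCAA.

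SLC1A3 upstream region: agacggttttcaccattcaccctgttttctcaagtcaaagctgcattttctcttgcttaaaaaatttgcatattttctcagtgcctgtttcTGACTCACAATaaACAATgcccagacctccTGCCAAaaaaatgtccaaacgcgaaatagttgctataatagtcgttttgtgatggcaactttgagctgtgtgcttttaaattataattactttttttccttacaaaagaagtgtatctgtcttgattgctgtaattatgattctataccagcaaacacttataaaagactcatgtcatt

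**Figure D3:**
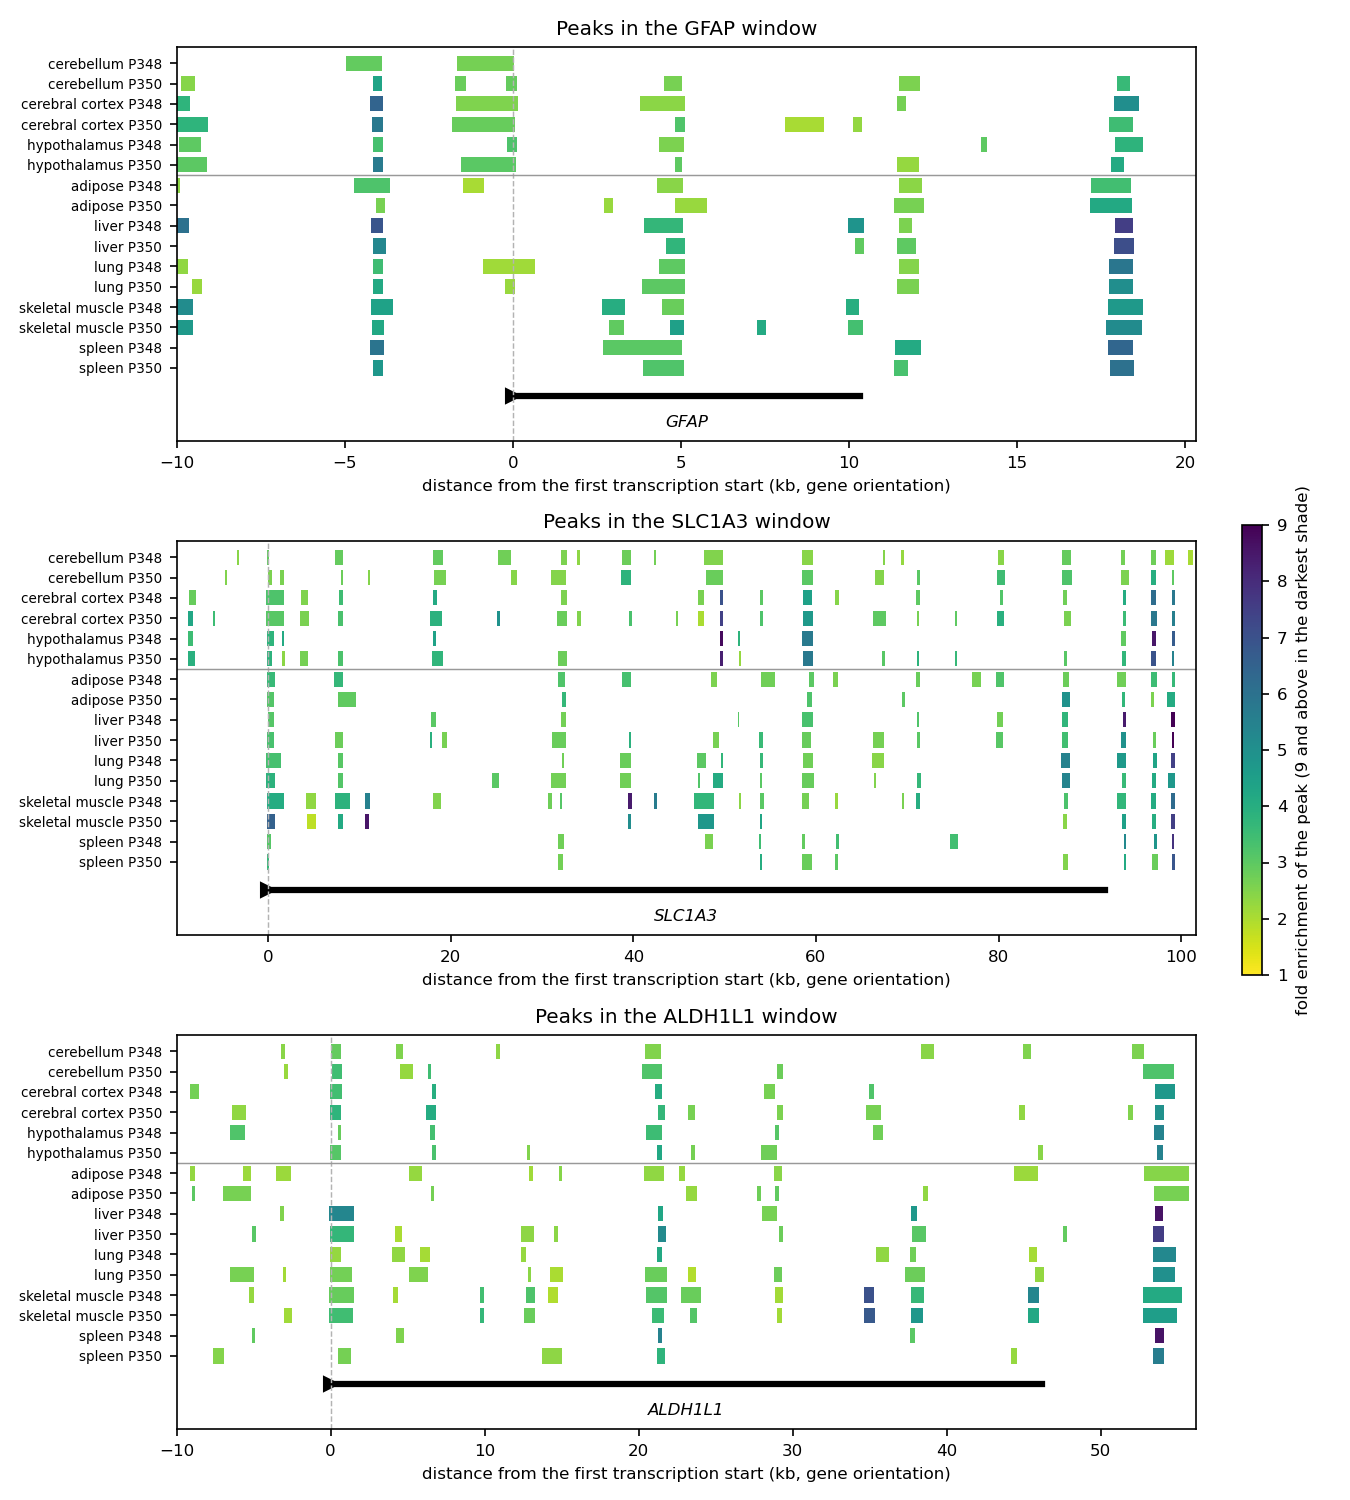
Peaks of the 16 libraries (rows) in the windows of GFAP, SLC1A3 and ALDH1L1, against the distance from the first start in kb, with the gene as a black bar and the fold enrichment as the shade. The GFAP start is filled in all 6 brain rows and in 3 others, the upstream SLC1A3 site, centred -8303 bp from the start, in the cortex and hypothalamus rows only, and the share of the ALDH1L1 window in peaks runs from 2.81% in spleen of P348 to 17.7% in skeletal muscle of P348.

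ALDH1L1 lies on the minus strand at chr7:53748585-53794777, and its window also overlaps SLC41A3. The level was 30.4 and 38.8 in cerebellum, 49.7 and 56.4 in cerebral cortex and 63.2 and 38.1 in hypothalamus. It was 78.2 and 74.6 in adipose, 64.7 and 69.3 in liver, 52.3 and 77.6 in lung, 119 and 123 in skeletal muscle and 28.0 and 64.5 in spleen. Skeletal muscle stood clear above adipose, and adipose above liver, whereas all lower neighbours overlapped. Liver, where the enzyme is abundant, did not pass as higher than the 4 other non-brain tissues (log2 difference -0.08, 95% interval -0.67 to 0.50, limma adjusted p = 0.923, with 1.36% of all windows called higher and 0.729% lower). Against brain it was at 0.53 (95% interval -0.07 to 1.14, limma adjusted p = 0.201, with 12.2% called higher and 1.84% lower), and 0 of 6 members passed in either liver comparison, nor did any at an unadjusted p under 0.05. With the peaks of a q-value under 0.0001 the first liver difference turned to 1.29 and still missed the threshold (limma adjusted p = 0.312).

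The start of ALDH1L1, chr7:53793242-53794904, was called in all 6 brain libraries with folds of 2.87 to 3.79. It was called in liver at 5.31 and 3.70, in skeletal muscle at 2.87 and 3.45, in lung at 2.26 and 2.69 and in spleen of P350, and not in adipose. Liver of P348 had the highest value at this site. Of the 5 regions of the window with a peak in both liver libraries, the strongest in the weaker liver library were at the SLC41A3 start, chr7:53739046-53743041 (8.61 and 7.58, called in all 16 libraries), over coding exons at chr7:53772952-53774592 (4.28 and 5.20, called in 15 libraries) and at the ALDH1L1 start itself. The only region of the window that belonged to 1 tissue was in skeletal muscle, chr7:53784816-53785086, over a coding exon, with folds of 3.42 and 3.66. The 250 bases before the start (chr7:53794778-53795027, minus strand) hold 1 match, to the AP-1 motif TGAGTCA, in capitals, which 3.05% of all promoters of this length hold.

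ALDH1L1 promoter: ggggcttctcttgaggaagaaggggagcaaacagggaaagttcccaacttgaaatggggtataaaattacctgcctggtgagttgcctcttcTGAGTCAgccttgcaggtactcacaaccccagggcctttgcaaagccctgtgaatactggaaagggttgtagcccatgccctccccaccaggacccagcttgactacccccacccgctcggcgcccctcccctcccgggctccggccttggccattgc

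SOX9 lies on the minus strand at chr12:8642154-8647315 and had the fewest peaks, 0 to 4 a library. The level was 0 and 16.4 in cerebellum, 28.8 and 13.9 in cerebral cortex and 22.4 and 31.1 in hypothalamus. It was 2.73 and 27.3 in adipose, 10.1 and 14.6 in liver, 20.4 and 28.1 in lung, 20.8 and 21.1 in skeletal muscle and 26.5 and 8.72 in spleen. No tissue stood apart from its neighbour in the order, and the animals differed most in adipose. Cerebellum of P348 had no peak in this window, the only member window in any library without one. A region over the start, chr12:8646915-8648459, was called in 4 brain and 8 other libraries, with its highest folds in skeletal muscle (4.83 and 4.51). A region over coding exons, chr12:8644248-8646076, was called in 5 of 6 brain and 5 of 10 other libraries, with folds of 2.09 to 3.24.

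Among the brain tissues, GFAP was the only member that differed as measured. It was higher in cerebral cortex than in cerebellum by 1.31 (SE 0.33, adjusted p = 0.00743 from limma, which called 40.6% of all windows higher and 4.54% lower) and lower in cerebellum than in hypothalamus, at -1.11 (SE 0.33, adjusted p = 0.0296, with 2.3% higher and 22.3% lower). Here too all windows shifted, by 0.77 and -0.62, and after centring GFAP was at 0.54 (adjusted p = 0.230) and -0.47 (adjusted p = 0.372), so neither call was kept. As measured, the first call was lost without cerebellum of P348, at 1.25. The second was lost without that library or either hypothalamus library, at -1.05, -1.09 and -1.13. Each of these fits leaves 1 library in a tissue, as does the fit without cerebellum of P350, so no new calls are read from them. Cerebellum of P348, the library left in the latter, had a SOX9 level of 0 and the lowest median window of the 16, at 11.5. Between cerebral cortex and hypothalamus 0 of 6 members passed, where 0.0811% of all windows were higher and 0.0162% lower. At an unadjusted p under 0.05 SLC1A2 alone was higher in cortex, by 0.96 (SE 0.31, adjusted p = 0.183).

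The peaks of the 16 libraries in the 6 windows merged into 127 regions. None had a peak in all 6 brain libraries and in no other, which 0.098% of all 533944 pig regions had. At 2 or more brain libraries and no other there were 8 regions, 4 of SLC1A2 and 2 each of AQP4 and SLC1A3, against 10.5% of all regions. All 16 libraries shared 7 regions of the 127, against 3.15% of all regions. Regions with a peak in both libraries of 1 tissue and in no other library were 10 of the 127, against 9.72% of all regions, with 3 in brain tissues and 7 elsewhere.

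The motifs searched, on both strands, were the NFI half-site TTGGCA, the SOX motif ACAAT and its longer form ACAATGG, AP-1 as TGACTCA and its reverse complement TGAGTCA, STAT as TTCNNNGAA and HNF4 as CAAAGTCCA. ACAATGG contains ACAAT, so their matches overlap. In the middle 300 bases, TTGGCA was present in 20.5% of the 127 member regions and in 17.3% of all regions, ACAAT in 35.4% and 36.4%, ACAATGG in 3.15% and 5.05%, AP-1 in 5.51% and 6.13%, STAT in 7.09% and 8.67% and HNF4 in 0.787% and 0.430%. The member regions thus held each motif at shares near those of all regions. The promoter of SLC1A2 held 1 STAT match, present in 6.38% of all promoters of 250 bases, and the promoters of GFAP, AQP4, SLC1A3 and SOX9 held none of the motifs.

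Of a list of 30 other genes of astrocytes, 28 are reported here. As measured 5 of the 28 were higher and 6 lower in brain, where 8.22% of all windows were higher and 48.9% lower. The median difference of the 28 genes was -0.039, above the -0.45 of all windows. The genes that were higher were SLC39A12, a zinc transporter (1.20, SE 0.23, adjusted p = 8.24e-04 from limma), GJA1, the main gap junction protein of astrocytes (0.77), BMPR1B, a receptor for bone morphogenetic proteins (0.71), CHRDL1, a secreted antagonist of these proteins (0.49), and KCNJ10, a potassium channel (0.39). The genes that were lower were NFIA, a transcription factor of glial development (-0.80), VIM, an intermediate filament protein of many mesenchymal cells (-0.72), ZBTB20 (-0.64), FGFR3 (-0.54), PPP1R3C (-0.48) and HES5 (-0.41). After centring, 13 of the 28 were higher and 0 lower, where 17.7% of all windows were higher and 10.4% lower. At that setting SLC39A12 was at 1.68, GJA1 at 1.24 and KCNJ10 at 0.86, and 8 more passed that had not before, among them SLC6A11, a GABA transporter (1.08), SOX2, a transcription factor of neural progenitors and glia (0.94), HEPACAM, an adhesion protein of astrocyte endfeet (0.82) and ALDOC, a glycolytic enzyme (0.56). NFIA was at -0.33 and VIM at -0.25, and neither passed.

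**Figure D4:**
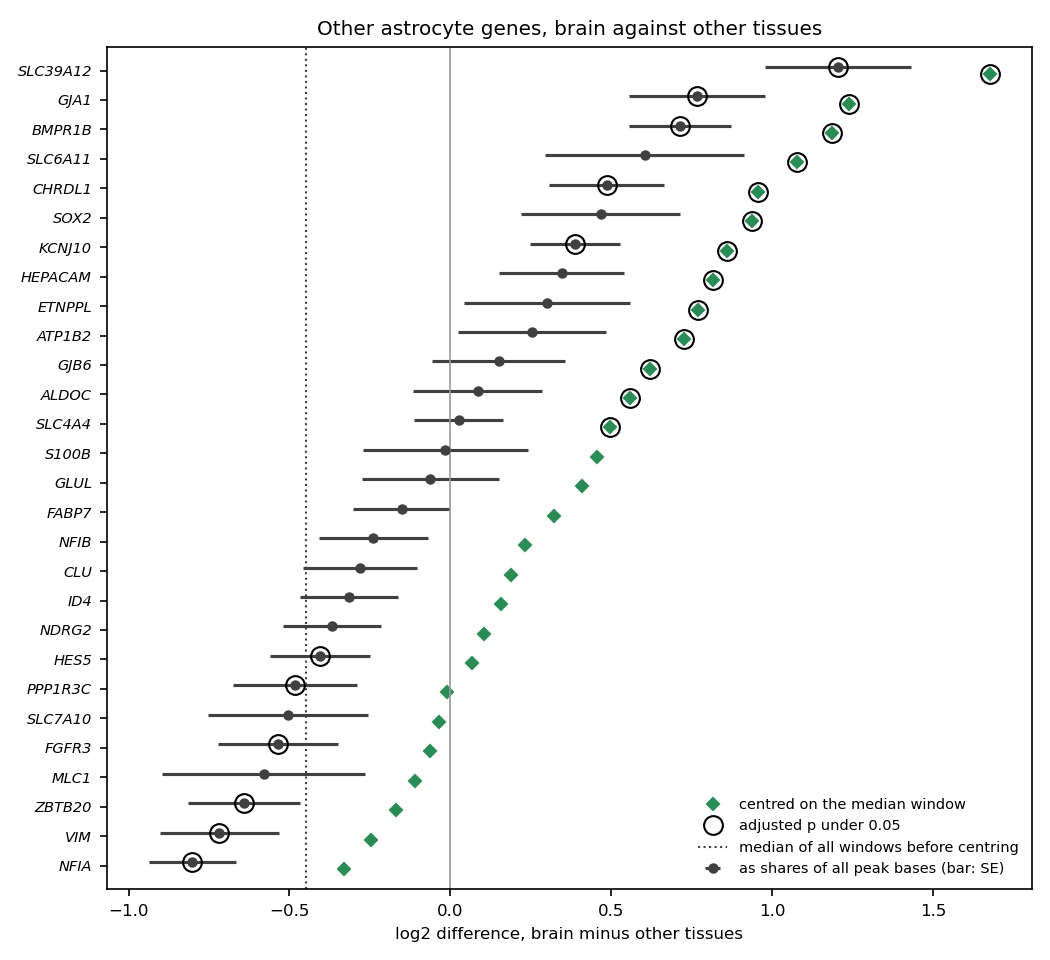
Log2 difference between brain and other tissues for the 28 other astrocyte genes reported, before (grey, bar for the SE) and after (green) centring on the median window, with circles at an adjusted p under 0.05. As measured 5 genes are higher and 6 lower, where 8.22% of all windows are higher and 48.9% lower. After centring 13 genes are higher and none is lower, where 17.7% of all windows are higher and 10.4% lower.

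Markers of other brain cells differed in both directions. As measured, where 8.22% of all windows were higher in brain and 48.9% lower, 3 of 7 neuron genes were higher (SNAP25, STMN2 and NEFL) and 1 lower, 1 of 7 oligodendrocyte genes was higher (OLIG2), 1 of 6 microglia genes was higher and 2 lower, and 3 of 4 endothelial genes were lower. After centring, 17.7% of all windows were higher and 10.4% lower. The counts were then 4 of 7 neuron and 4 of 7 oligodendrocyte genes higher, 1 microglia gene higher and 1 lower, and 1 endothelial gene lower. The summed level of the neuron list ran from 193 to 721 in brain and 214 to 430 elsewhere, and that of the oligodendrocyte list from 54.8 to 375 and 150.0 to 241. No gene of these lists was at 0 in every brain library, although RBFOX3, SOX10, TMEM119 and CLDN5 were at 0 in at least 1. Among markers of the other tissues, both skeletal muscle fibre genes, both adipocyte genes, both B cell genes, 1 of 2 alveolar genes and 2 of 4 hepatocyte genes were lower in brain as measured, and 1 hepatocyte gene, ALB, was higher on the log2 scale (0.77), although its mean level was 20.8 in brain and 22.4 elsewhere. The Bergmann glia genes GDF10 and HOPX and the ependymal gene FOXJ1 passed at neither setting. In liver, 3 of 4 hepatocyte genes (ALB, F9 and TTR) were higher than in the 4 other non-brain tissues. Of all windows, 1.36% were higher and 0.729% lower in that comparison. The part of cell mixture in the values of the 6 members was not tested.

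The windows whose levels ran most alike to those of a member over the 16 libraries were found by Pearson's r on the log2 scale, as a description. They were CAPRIN1 (0.947), XBP1 (0.930) and KIAA0754 (0.927) for GFAP, INHBB (0.762), NPTXR (0.698) and OMA1 (0.695) for AQP4, and ENOSF1 (0.832), TMOD2 (0.824) and CLEC2D (0.814) for SLC1A2. For SLC1A3 they were CNKSR3 (0.833), NANOG (0.806) and MPPED2 (0.799), for ALDH1L1 EGFR (0.929), LRG1 (0.922) and C4H8orf76 (0.922), and for SOX9 FOXL1 (0.806), LOC100513844 (0.805) and FBXO41 (0.804). None of the other members or of the 28 other astrocyte genes was among them, and the points of each r share their libraries and list lengths.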

How the data were processed

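Only pig peak lists were analysed here, 16 files with 1 list per library. According to the submitters' processing notes the tools were Trim Galore 0.4.5, BWA 0.7.17, SAMtools 1.10 and Picard 2.18.17, which the study's methods describe for ChIP-seq; how ATAC-seq cut sites were handled is not stated in the sources read. Peaks were called by the authors for each library with MACS2, using its broad setting. The study's methods give 0.05 as the limit on q. The smallest −log10 q-value in the pig lists was 1.0003, so some peaks counted here had a mean q-value above 0.05. The deposited score is close to 10 times the −log10 q-value, and the deposited fold (a ratio to local background), −log10 p-value and −log10 q-value are averages over a peak. Read totals in the study's supplement were not used here, so a list's length was not adjusted for depth, and a deeper library can yield more and weaker peaks.

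Samples were grouped by labelled tissue. The replicate was the animal, so the same name pairs samples across tissues by source. Deviations from the tissue means of same-animal libraries correlated by -0.22 to 0.18 over 28 pairs of tissues. With 2 littermates a tissue, p-values measure only the spread between these animals. Windows came from the RefSeq annotation of Sscrofa11.1, the study's assembly. Peak bases per Mb of all peak bases were tested as log2(value + 5) with limma 3.58.1 in R 4.3.3 (tissue factor, moderated with a trend, two-sided, threshold 0.05), for 18506 windows with a mean of at least 5 of 20674. The pseudocount understates changes of low windows. Single values were tested by an exact permutation test. Neighbouring tissues whose 2 values overlapped were not called different. The fits were tested on simulated data that held no shift of all windows between libraries. That test therefore cannot show how the shift seen here affects the calls as measured. Regions merged peaks sharing 1 bp.

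The members, gene lists, motifs and rules were chosen with earlier results of these data known. The named regions were those at a member's start, in all 16 libraries, in all 6 brain libraries alone, in 1 tissue alone or, at ALDH1L1, in both liver libraries, with at most 3 of a kind per gene, taken by fold in the weakest library. The named genes were the members and the 3 windows most alike to each. Alternatives were pseudocounts of 1 and 20, no filter, windows of 2 and 50 kb, peaks with a q-value under 0.0001, lists of equal length, counts of peaks, undivided bases, peaks at other genes' starts left out, tissue means, an animal term as a replicate block, a start distance of 500 bp, merging of peaks closer than 500 bp, and each library or animal left out. Centring on the median window and leaving out the cerebellum, alone or together and with other settings, were added after the data were seen. Cattle lists were not used here. SLC25A18 was not among the annotated symbols used here, and 1 further gene of that list is not reported here.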

Additional observations from a re-analysis of the deposited data

Results flagged for a closer look

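AQP4 in cerebral cortex of P348 had a level of 53.1 peak bases per Mb, and the next of the 6 brain libraries was cerebellum of P350 at 32.7, so that a single library lay far above the rest of its group. For each gene the highest and the lowest of the 6 brain and of the 10 other libraries were examined, 24 checks in all, and this was the only library that far out, and chance flags about 1 in 20 groups. Without that library the centred brain difference of AQP4 was 0.92 and no longer passed.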

How the results depend on the processing

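All values here are log2 differences from limma unless said otherwise, and the cause of each change was not tested. Of 596 alternative values computed, 491 were rated the same. A tested difference had to keep its direction and its side of the threshold, and an untested one its direction only. A count could move by up to a set factor, that bound included. A difference that passed at no setting could thus be rated the same. Regions of 1 tissue, 10 as reported, were thus rated the same at 8 with close peaks merged and at 15 with equal length. Brain against other tissues as measured changed as follows. A window of 50 kb gave -0.61 for GFAP, 0.84 for AQP4 and -0.068 for SLC1A2. Peaks with a q-value under 0.0001 alone gave -1.83 for GFAP, -0.016 for SLC1A2 and -0.37 for ALDH1L1. Lists of equal length gave 1.07 for AQP4, 0.45 for SLC1A3 and -0.94 for ALDH1L1. Undivided peak bases gave 0.086 for GFAP, -0.39 for ALDH1L1 and 0.018 for SOX9. Without peaks at other starts GFAP was at 0.19, with numbers of peaks SLC1A2 was at -0.073, with a pseudocount of 20 SOX9 was at 0.0028, and on tissue means ALDH1L1 was at -0.60 (adjusted p = 0.317). Centring, chosen after seeing the data, gave 0.36 for GFAP, 1.04 for AQP4, 0.56 for SLC1A2, 0.66 for SLC1A3, -0.13 for ALDH1L1 and 0.40 for SOX9. Leaving out the cerebellum, also chosen then, gave 0.29 for GFAP, -0.43 for ALDH1L1 and 0.41 for SOX9.

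The centred values were 0.53 for GFAP, 0.85 for AQP4, 0.41 for SLC1A2 and 0.48 for SLC1A3 without the cerebellum. With peaks of a q-value under 0.0001 they were -1.62 for GFAP, 1.05 for AQP4, 0.19 for SLC1A2, 0.57 for SLC1A3 and -0.18 for SOX9. A window of 50 kb gave -0.082 for GFAP, one of 2 kb gave 0.54 for SLC1A3, and equal length gave 0.36 for SLC1A2 and -0.048 for SOX9. GFAP in cortex against cerebellum was 2.92 with strong peaks, 0.78 undivided and 0.54 centred. In cerebellum against hypothalamus it was -0.67 at 2 kb, -1.29 with strong peaks, -0.88 without peaks at other starts, -0.28 undivided and -0.47 centred. ALDH1L1 in liver against the other non-brain tissues was 0.32 at 2 kb, 1.29 with strong peaks and 0.12 without peaks at other starts.

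Members that passed in brain against other tissues, 1 as reported and lower in brain, were 3 when centred, all higher. There were also 3 at 50 kb, but with GFAP lower and AQP4 higher, so the equal counts are not the same result. With equal length 2 passed, and 0 did so undivided, on tissue means or without the cerebellum. Of all windows, 8.22% were higher and 48.9% lower as reported, against 17.7% and 10.4% when centred. In cortex against cerebellum, 1 as reported, the members that passed were 3 at 50 kb and 0 centred, undivided or with strong peaks. As reported 40.6% of all windows were higher and 4.54% lower, and centred 1053 were higher and 1738 lower of 18506. In cerebellum against hypothalamus, 1 as reported, the members that passed were 0 centred, undivided, with strong peaks, at 2 kb or without peaks at other starts. As reported 2.3% of all windows were higher and 22.3% lower, and centred 821 were higher and 274 lower of 18506. The shares of all windows called at the other settings are not given here, so the counts of members there cannot be set against them. Regions in all 16 libraries, 7 as reported, were 0 with strong peaks and 3 with equal length, and regions of 1 tissue, 10 as reported, were 16 with strong peaks.

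With libraries or animals left out, the brain difference ran from -0.27 to 0.051 for GFAP, 0.28 to 0.85 for AQP4, -0.045 to 0.22 for SLC1A2, -0.030 to 0.41 for SLC1A3, -0.80 to -0.40 for ALDH1L1 and -0.42 to 0.28 for SOX9. With 1 animal left out the fit with a term for each tissue has no residual degrees of freedom, so those values carry no test, and brain against other tissues within 1 animal was not fitted separately. GFAP ran from 1.25 to 1.36 in cortex against cerebellum and from -1.18 to -1.03 in cerebellum against hypothalamus. ALDH1L1 ran from 0.42 to 0.64 in liver against brain and from -0.24 to 0.069 against the other non-brain tissues. The centred ranges were 0.30 to 0.43 for GFAP (adjusted p = 0.0478 without spleen of P348), 0.87 to 1.20 for AQP4, 0.44 to 0.68 for SLC1A2, 0.54 to 0.78 for SLC1A3, -0.23 to -0.017 for ALDH1L1 and 0.13 to 0.67 for SOX9. The numbers of members passing ran from 1 to 2 in brain against other tissues, 0 to 3 in cortex against cerebellum and 0 to 2 in cerebellum against hypothalamus. Those that joined were AQP4, SLC1A2 and SOX9. Within the brain, a fit without 1 brain library leaves its tissue with a single library, and SOX9 was at 0 in cerebellum of P348. The shares of all windows called in these fits are not given here.

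The replicate block for the animal left ALDH1L1 at -0.60 (adjusted p = 0.0134) and GFAP at 1.31 and -1.11 (adjusted p = 0.00884 and 0.0343), and it changed no call. Read totals were not used here, so whether a window without a peak was too thinly sequenced was not tested, and the 2 animals a tissue limit what a test can show.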
